A study of Mus musculus with 4 samples.

Results

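The Myc, Max and Mxd network was followed through normal, preleukemic and leukemic mouse thymus in single cells. Its 10 genes (Myc, Mycn, Max, Mxd1, Mxd3, Mxd4, Mxi1, Mnt, Mlx and Mga) were chosen by name as the Myc activators, their partner Max and the repressors and related factors that share Max or Mlx, out of 31053 genes counted. All 10 are listed in each of the 4 matrices, and 9 had UMIs in every library. UMIs (unique molecular identifiers, 1 per captured transcript) were counted by 10x Genomics 3′ sequencing of viable sorted thymocytes of FVB/N mice, 1 animal per library. The WT library came from a 6-week-old wild type thymus. The preleukemic library came from a 6-week-old Tal1/Lmo2 thymus without leukemia, and T-ALL#1 and T-ALL#2 came from 3-month-old Tal1/Lmo2 mice with T-cell acute lymphoblastic leukemia. Per the study's methods, the proximal Lck promoter, which is active in thymocytes, drives both transgenes. WT carried no transgene. The leukemic mice were the older ones, and age cannot be told apart from leukemia.

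Myc and Mycn are transcription factors that bind DNA as dimers with Max, most tightly at the E-box letters CACGTG, and switch on genes for growth and ribosome production. Mxd1, Mxd3, Mxd4, Mxi1 and Mnt also dimerize with Max, occupy the same letters and bring in the SIN3 corepressor with its histone deacetylases. Mlx joins Mnt, Mxd1 and Mxd4 as an alternative partner and links the network to the glucose-sensing Mondo factors. Mga binds Max inside a polycomb repressor complex. In the thymus Myc is known as a target of Notch1 and as a driver of T-ALL, while Mxd genes are best known from cells that leave or pass through the cell cycle.

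The kept cells numbered 4220 in WT, 5576 in preleukemic thymus, 5773 in T-ALL#1 and 1975 in T-ALL#2, with 24042062 to 70745712 UMIs per library and median depths from 3800.5 UMIs per cell in WT to 17581 in T-ALL#2. Pairs of libraries shared 0 to 9 cell barcodes. All 9 thymocyte markers were present in every library, with summed levels from 3336 to 6017 CPM (a gene's share of the UMIs, scaled to the same total for each library). Myeloid and red cell markers stood highest in WT, where 8 myeloid markers summed to 405 CPM against 80.2 to 137 CPM in the others, and 3 red cell markers to 82.9 CPM against at most 0.221 CPM. The 6 B cell markers summed highest in the preleukemic library, at 19.2 CPM against 11.4 CPM in WT and 5.55 to 6.49 CPM in the leukemias. The labels call T-ALL#1 female and the rest male, but WT and the preleukemic library held 1380 and 1869 CPM of Xist with 1 and 5 UMIs of 4 Y-linked genes, so these 2 libraries went against their sex labels. Fits that rest on them are also given below with either one left out, but no fit left out both. By these transcripts T-ALL#2 alone was male, with 3 UMIs of Xist and 4413 of the Y-linked genes. Tal1 was at 0 UMIs in WT and at 409.6, 68.3 and 234.0 CPM in the preleukemic library, T-ALL#1 and T-ALL#2. Lmo2 was at 0.915 CPM in WT and 4.48 CPM in the preleukemic library. It was lower than in WT in both leukemias, at 0.368 and 0.276 CPM, so its counts did not follow the genotype. The reason was not tested.

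The activators were compared first, to see how the network stood in leukemia. Myc (chromosome 15, 61985391 to 61990374 on GRCm38, plus strand) was at 25.9 CPM in WT (95% Poisson interval 23.9 to 28.0), 39.6 in preleukemic thymus (37.7 to 41.5), 67.2 in T-ALL#1 (65.3 to 69.1) and 44.6 in T-ALL#2 (42.4 to 46.8). WT was the lowest and T-ALL#1 the highest, and no interval overlapped another. These intervals, like all those on CPM and on shares of cells, cover counting error only. WT and preleukemic thymus were each measured in 1 animal, so no test between libraries was made. Myc was 2.59-fold higher in T-ALL#1 than in WT (95% exact interval 2.38 to 2.82) and 1.72-fold higher in T-ALL#2 (1.57 to 1.89). Against the preleukemic library it was 1.70-fold and 1.13-fold higher. Mycn (chromosome 12, 12936093 to 12941914, minus strand), the activator of embryonic and progenitor tissues, had 32 UMIs in WT (1.33 CPM), 18 in the preleukemic library (0.441 CPM) and 0 in either leukemia. Set at a floor of 3 UMIs per library, Mycn was lower than in WT by 31.4-fold (T-ALL#1) and 16.1-fold (T-ALL#2). The exact 95% intervals, which include the counting error of WT, start at 24.1-fold and 12.3-fold lower. Among cells thinned to 2000 UMIs, 0.279% of WT and 0.0957% of preleukemic cells held a Mycn UMI, while 0 of 5679 cells in T-ALL#1, read as at most 3 cells, allow a share of up to 0.0528%, and 0 of 1975 in T-ALL#2 by the same rule up to 0.152% (exact upper limits of 0.0649% and 0.187%).

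**Figure D1:**
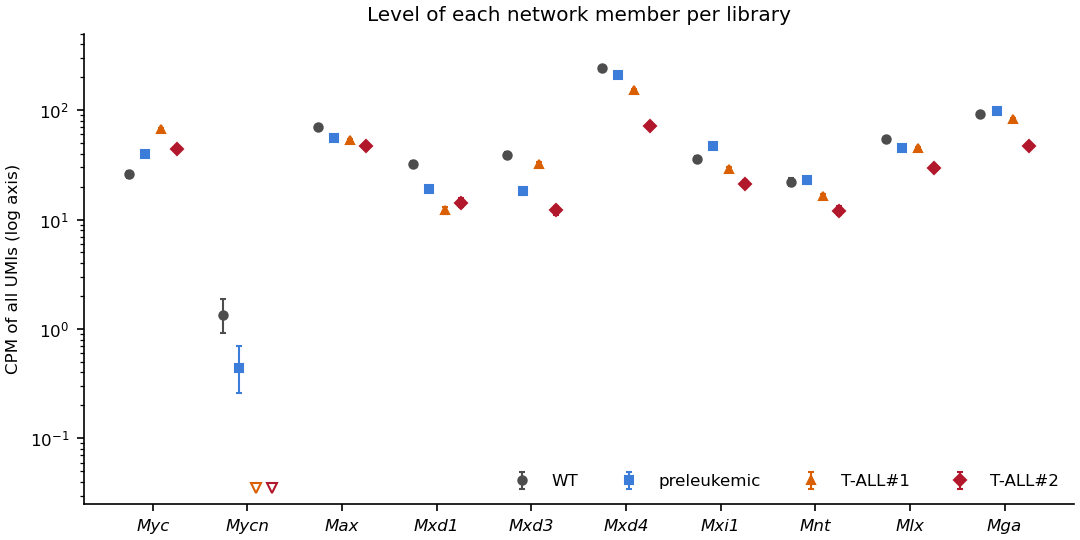
CPM of the 10 network genes in all UMIs of the kept cells of each library, on a log axis, with 95% Poisson intervals that are often smaller than the symbols. Open triangles at the bottom mark Mycn with 0 UMIs in T-ALL#1 and T-ALL#2. Myc is lowest in WT at 25.9 CPM, and Mxd4 falls from 242 CPM in WT to 71.8 CPM in T-ALL#2.

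Mxd4, Mxd1 and Mnt were lower in both leukemias than in WT, on the CPM scale and with the TMM factors described below, though for Mxd4 in T-ALL#1 not in every Cd4 and Cd8 gate. Mxd4 was at 242 CPM in WT, 210 in preleukemic thymus, 152 in T-ALL#1 and 71.8 in T-ALL#2. Relative to WT, T-ALL#1 was 1.59-fold and T-ALL#2 3.37-fold lower. Mxd1, the repressor best known from differentiating cells, was at 32.2, 19.0, 12.1 and 14.3 CPM in the same order. It was lower in each Tal1/Lmo2 library than in WT, by 1.70-fold, 2.66-fold and 2.25-fold. Mxi1 peaked in the preleukemic library, with 35.8, 47.3, 29.2 and 21.4 CPM, and was 1.62-fold and 2.21-fold lower in the leukemias than there. Mnt, a Max-binding repressor made in most cell types, was at 22.1, 22.8, 16.3 and 12.0 CPM. Mxd3 had no common direction, with 39.0 CPM in WT, 18.2 in preleukemic thymus, 32.0 in T-ALL#1 and 12.2 in T-ALL#2. Among the partners, Max ranged from 47.5 CPM in T-ALL#2 to 70.3 in WT, Mlx from 29.5 to 54.4 CPM in the same libraries, and Mga from 47.5 CPM in T-ALL#2 to 98.5 in the preleukemic library.

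Of the 9 members with a mean of at least 5 CPM, Myc alone was at least 1.5-fold higher in both leukemias than in WT, where 8.18% of 9196 genes were, and Mxd1 and Mxd4 were at least 1.5-fold lower, where 25% were. Against the preleukemic library none was that much higher (6.14% of all genes were) and Mxi1 was that much lower (22.5% were). The median gene was itself lower in the leukemias than in WT, by a log2 ratio of -0.18 in T-ALL#1 and -0.53 in T-ALL#2. With TMM factors, which reset those medians to 0.13 and 0.03, Myc was 3.21-fold and 2.52-fold higher than in WT and past 1.5-fold against the preleukemic library too (2.03-fold and 1.59-fold). On the TMM scale Mxd1 stayed past 1.5-fold below WT (2.14-fold and 1.53-fold), while Mxd4 was 1.28-fold and 2.30-fold lower, and Mxi1 was 1.35-fold and 1.56-fold below the preleukemic library. Mxd3, Mxi1 and Mlx in T-ALL#1, below WT in CPM, were at 1.02-fold, 1.01-fold and 1.02-fold of WT with these factors. Split by the cycling calls described below, Myc was past 1.5-fold against WT in cycling cells alone, Mxd1 in non-cycling cells alone and Mxd4 in neither. In T-ALL#2, Myc was at 43.9 CPM in non-cycling cells against 32.7 in WT, and Mxd1 at 12.7 CPM in cycling cells against 13.7. Weighting all cells equally or thinning each to 2000 UMIs also took Mxd4 out of the genes past 1.5-fold against WT. The step of Myc from WT to preleukemic thymus depended on this weighting. It was 1.53-fold in CPM (95% exact interval 1.39 to 1.68), where deep cells count most, but thinned UMIs gave 22.1 CPM in WT and 21.4 CPM in preleukemic thymus, with 57.4 CPM in T-ALL#1 and 46.8 CPM in T-ALL#2.

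Free RNA could be read in T-ALL#2 alone, whose matrix holds all barcodes. Its 1187978 droplets with under 100 UMIs held Myc at 55.7 CPM (95% interval 45.3 to 67.6) against 44.6 CPM in cells, Mxd4 at 57.3 against 71.8 CPM, Mxd3 at 8.27 against 12.2 CPM and Mycn at 0 UMIs in both. Its part in the levels of cells was not tested. Cells carrying B or myeloid markers without T-cell genes were too few (4 to 11 per library) to serve as a background.

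To ask which members switch with the cell cycle, cells with at least 2000 UMIs were thinned to 2000 UMIs each and called cycling when Mki67 or Top2a, both made by dividing cells, was among them. Cycling cells were 18.4% of 3229 WT cells (95% Clopper-Pearson interval 17.0 to 19.7), 14.5% of 5226 preleukemic cells (13.6 to 15.5), 31.2% of 5679 in T-ALL#1 (30.02 to 32.4) and 28.4% of 1975 in T-ALL#2 (26.4 to 30.4). This left out 991, 350, 94 and 0 shallower cells in the same order, and without thinning the shares would be 24.6%, 24.9%, 48.5% and 61.9%. The UMIs of each state were summed per library and the 8 sums compared by edgeR's quasi-likelihood test with the library as a block, adjusted by Benjamini-Hochberg over all genes. Of 11721 genes, 40.8% were past an adjusted p of 0.05, 19.2% higher and 21.6% lower in cycling cells. The count fell from 4778 genes to 1158 without the preleukemic library and to 2140 without T-ALL#1. Of the 10 members, 9 were tested, since Mycn had too few UMIs. Mxd3 was called higher, Mxd4, Mxd1 and Mga were called lower, and Myc, Max, Mxi1, Mnt and Mlx were not called.

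Mxd3 and Mxd4 moved farthest, in opposite directions, so the stretches upstream of their start sites are shown, from RefSeq (GRCm38.p6), 5′ to 3′ on the gene's strand, with the E-box letters in capitals. They end where the more upstream of the RefSeq and GENCODE M21 starts begins. The Mxd3 stretch is chr13:55329824-55329981 and the Mxd4 stretch chr5:34187721-34187960, both on the minus strand.
Mxd3: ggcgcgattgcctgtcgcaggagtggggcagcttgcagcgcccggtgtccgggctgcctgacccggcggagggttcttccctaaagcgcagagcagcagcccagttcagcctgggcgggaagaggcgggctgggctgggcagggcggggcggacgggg
Mxd4: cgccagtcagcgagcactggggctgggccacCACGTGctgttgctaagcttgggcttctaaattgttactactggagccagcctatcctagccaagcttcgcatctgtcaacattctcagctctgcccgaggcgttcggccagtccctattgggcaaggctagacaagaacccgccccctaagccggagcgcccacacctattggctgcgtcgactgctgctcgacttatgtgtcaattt
In windows from 250 bases before to 50 bases after the start, CACGTG was present in 7.15% of 32851 windows of all genes and, among the 9 members with a window, in those of Max, Mxd4, Mnt and Mlx. The Mxd4 match starts 219 bases before the RefSeq start, and the Mxd3 window held none. The E2F letters TTTCGCGC, TTTGGCGC, TTTCCCGC or TTTGCCGC, searched on both strands, were in 2.26% of all windows and among members in that of Mycn alone, where 3 matches include an overlapping pair. Letters known as the CHR element of mitotic genes (TTTGAA or TTCGAA, both strands) were in 19.2% of all windows and again in that of Mycn alone. A match or its absence in these windows says nothing about which factor acts there.

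Mxd3, which is described as the family member of S phase, switched on with cycling in all 4 libraries. Its level in non-cycling cells was 1.96 CPM in WT, 1.67 in preleukemic thymus, 4.25 in T-ALL#1 and 4.69 in T-ALL#2. Cycling cells held 107, 60.04, 59.1 and 24.6 CPM in the same order, so every cycling value stood above every non-cycling one. The fold was 54.6 in WT (95% exact interval 37.5 to 82.6), 36.0 in preleukemic thymus (26.8 to 49.3), 13.9 in T-ALL#1 (11.8 to 16.6) and 5.24 in T-ALL#2 (4.203 to 6.59). The fit over all 4 libraries gave a log2 change of 4.27 (SE 0.59, edgeR adjusted p = 0.00607), and Mxd3 was called in every alternative run, with adjusted p-values from 1.27e-08 to 0.0448. With cells not thinned, Mxd3 was detected in 20.4% to 41.5% of cycling and 0.382% to 1.09% of non-cycling cells. Among thinned cells, it was detected in 19.9% of cycling WT cells against 0.379% of non-cycling ones, in 7.89% against 0.269% in preleukemic thymus, in 9.36% against 0.410% in T-ALL#1 and in 3.93% against 0.636% in T-ALL#2.

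The smaller folds of the leukemias moved with the defining genes themselves. Mki67 was at 17.3 and 21.9 CPM in non-cycling WT and preleukemic cells and at 52.2 and 51.1 CPM in the same state in T-ALL#1 and T-ALL#2, and its fold fell in the same order as that of Mxd3, from 56.2 in WT to 25.8, 14.97 and 5.62. Free RNA in T-ALL#2 held 8.27 CPM of Mxd3 and 152 CPM of Mki67, both above the non-cycling cells of that library. The part of these in the smaller folds of Mxd3 was not tested. The difference of the cycling effect between the leukemias and the other libraries was tested as an interaction. For Mxd3 it was -2.34 on the log2 scale (SE 0.49, unadjusted p = 0.00139, edgeR adjusted p = 0.102), and DESeq2 put it past the threshold (-2.46, adjusted p = 0.000460), while the other alternatives gave adjusted p-values from 0.191 to 0.721. edgeR called 0% of 11721 genes in this test, with 2135 at an unadjusted p under 0.05, and DESeq2 called 2.47%. By phase, scored on S and G2/M genes, Mxd3 was at 0.667 to 1.77 CPM in G1, 9.49 to 42.2 CPM in S and 25.7 to 115 CPM in G2/M, with the order G1, S, G2/M in each library. Phases and cycling calls were not the same cells, since 85.1% of non-cycling WT cells but 68.3%, 64.8% and 49.8% of those of the preleukemic library, T-ALL#1 and T-ALL#2 were scored as G1.

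Mxd4, a repressor of resting and differentiated cells, was lower in the cycling cells of each library but not off. Non-cycling cells held 311 CPM in WT, 259 in preleukemic thymus, 238 in T-ALL#1 and 87.6 in T-ALL#2, and cycling cells 71.3, 86.0, 67.6 and 45.5 CPM. Each cycling value was below each non-cycling one. The level was 4.37-fold lower in cycling cells in WT, 3.01-fold in preleukemic thymus, 3.52-fold in T-ALL#1, and least in T-ALL#2 (1.92-fold). The fitted log2 change was -1.52 (SE 0.17, edgeR adjusted p = 0.00376), and the call held in every alternative, with the largest adjusted p at 0.0416 without the preleukemic library. Mxd4 was detected in 47.4% of non-cycling against 20.2% of cycling WT cells, in 40.8% against 20.5% in preleukemic thymus, in 43.4% against 16.9% in T-ALL#1 and in 18.7% against 10.4% in T-ALL#2, and in cells not thinned in 68.3% to 78.5% of non-cycling against 54.9% to 63.2% of cycling cells. By phase it was highest in G1 and lowest in S in each library, with 334 against 51.5 CPM in WT and 131 against 43.4 CPM in T-ALL#2.

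**Figure D2:**
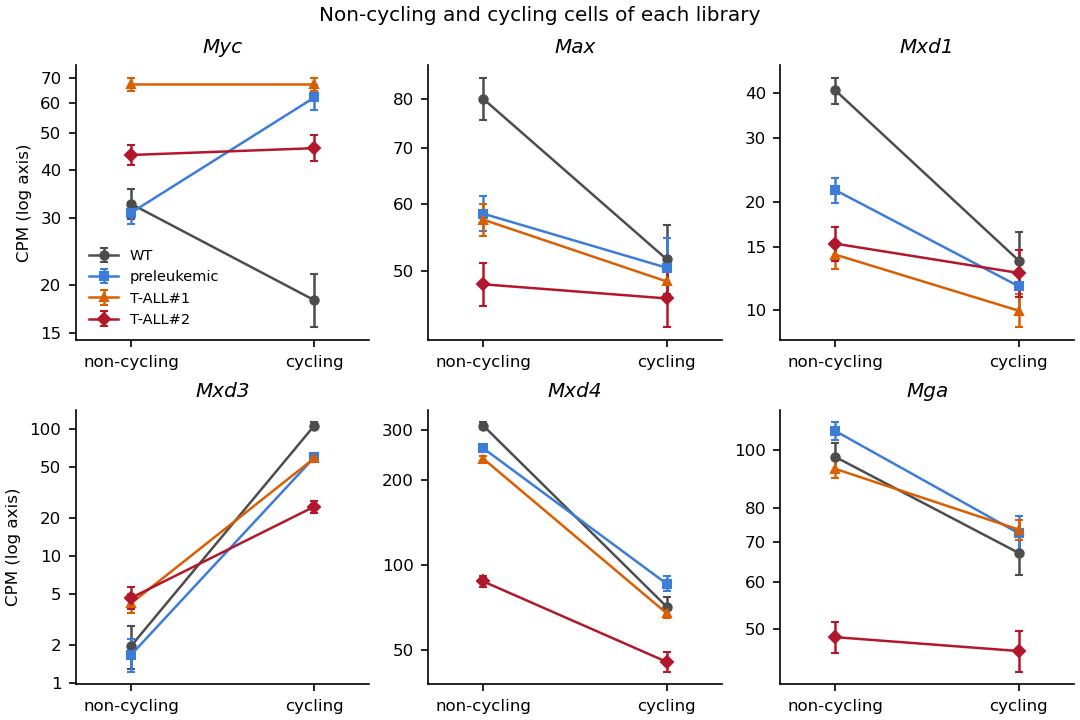
CPM (log axis) of Myc, Max, Mxd1, Mxd3, Mxd4 and Mga in the non-cycling and cycling cells of each library, with 95% Poisson intervals and 1 line per library. The Mxd3 lines all rise and the Mxd4 lines all fall, while the Myc line falls in WT from 32.7 to 18.2 CPM, rises in the preleukemic library from 30.9 to 62.1 CPM and stays within counting error in both leukemias.

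Mxd1 also fell with cycling, from 40.6 to 13.7 CPM in WT, from 21.5 to 11.7 in preleukemic thymus, from 14.3 to 9.98 in T-ALL#1 and from 15.3 to 12.7 in T-ALL#2. The decrease was largest in WT (2.96-fold) and smallest in T-ALL#2 (1.21-fold). The fitted log2 change was -0.70 (SE 0.20, edgeR adjusted p = 0.0286), and the call was lost without the preleukemic library (0.118) or T-ALL#1 (0.0553) and in cells with no Cd4, Cd8a or Cd8b1 UMI at full depth (0.179). Mga, the large scaffold that joins Max to polycomb proteins, went from 97.4 to 67.2 CPM in WT, from 108 to 72.5 in preleukemic thymus, from 93.0 to 73.5 in T-ALL#1 and from 48.5 to 45.9 in T-ALL#2. Its log2 change of -0.28 (SE 0.09, edgeR adjusted p = 0.0471) lay at the threshold and was not called without WT (0.142), the preleukemic library (0.178) or T-ALL#1 (0.134), nor with another random seed for thinning (0.0665), thinned UMIs summed (0.272), cells with no Cd4, Cd8a or Cd8b1 UMI (0.283) or every gene with at least 1 UMI (0.0803). Without the library block, neither Mxd1 (0.221) nor Mga (0.444) was called.

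Mnt had a log2 change of -0.33 (SE 0.11, edgeR adjusted p = 0.0531) and lower CPM in cycling cells of all 4 libraries, like Max, Mxd1, Mxd4, Mxi1 and Mga (38% of genes were), where Mxd3 was higher in all 4 (25.9% of genes were). It passed the threshold with another seed (0.0465), with cycling called on all UMIs (0.0145) and with cycling called by phase (0.0106). For Max the log2 change was -0.19 (SE 0.10, edgeR adjusted p = 0.186), for Mxi1 -0.08 (SE 0.11, adjusted p = 0.565) and for Mlx 0.01 (SE 0.09, adjusted p = 0.958). Max was at 80.1 against 51.6 CPM in non-cycling and cycling WT cells, a larger step than the one from 57.6 to 48.6 CPM in T-ALL#1. None of these p-values shows that a member was equal in both states.

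**Figure D3:**
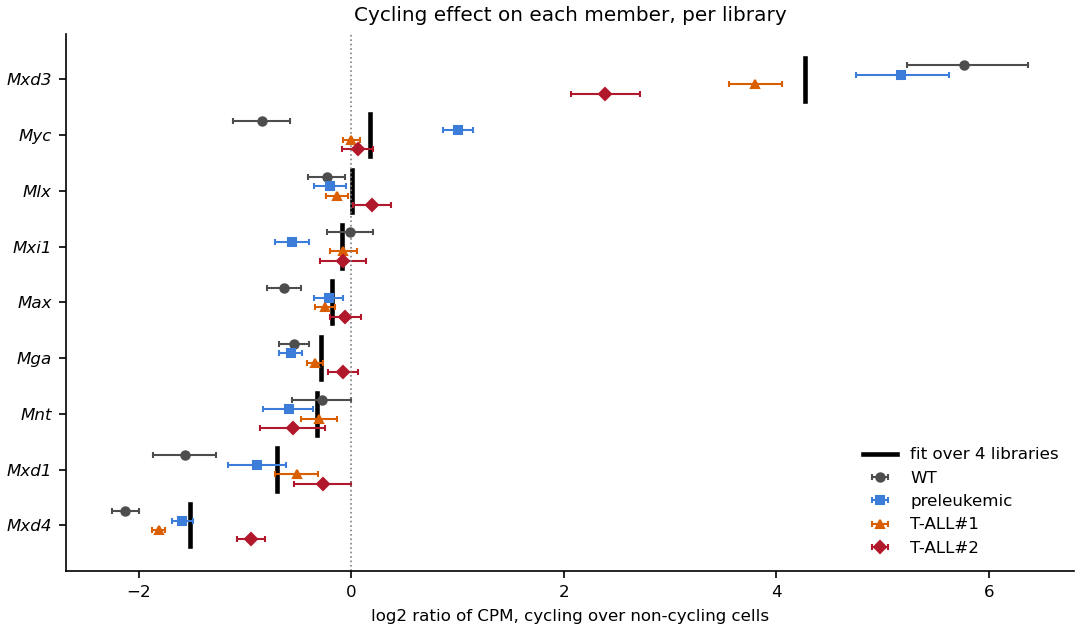
Log2 ratio of CPM in cycling over non-cycling cells for the 9 tested members, ordered by the fitted change (black bars, edgeR over 4 libraries). Symbols are single libraries with 95% counting intervals, and the dotted line marks no difference. Myc is the only member shown with libraries beyond counting error on both sides of 0 by more than 0.8, at -0.84 in WT and 1.01 in the preleukemic library.

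Myc had no common direction. It was lower in cycling than in non-cycling WT cells, at 18.2 against 32.7 CPM (fold 0.559, 95% exact interval 0.463 to 0.672). In the preleukemic library it was higher, at 62.1 against 30.9 CPM (fold 2.01, interval 1.82 to 2.22). The leukemias held 67.2 CPM in both states in T-ALL#1 (fold 1.00, interval 0.944 to 1.06) and 45.7 against 43.9 CPM in T-ALL#2 (fold 1.04, interval 0.941 to 1.15). Over all gates, non-cycling cells had less Myc in WT and the preleukemic library than in either leukemia, and cycling cells had least in WT. The fit over 4 libraries gave a log2 change of 0.18 (SE 0.28, edgeR adjusted p = 0.643), which turned to -0.15 (adjusted p = 0.573) without the preleukemic library. Other ways to call or sum gave larger changes that were not called either. The log2 change of Myc was 0.56 with cycling called on all UMIs (edgeR adjusted p = 0.186). It was 0.57 with cycling called by phase (0.161) and 0.50 with thinned UMIs summed (0.469). Of 9194 genes with a mean of at least 5 CPM, 15.2% had ratios on opposite sides of 1 in WT and the preleukemic library. The interaction with leukemia was -0.21 (SE 0.48, edgeR adjusted p = 0.845). It was -1.08 (adjusted p = 0.000313) without WT and 0.81 (adjusted p = 0.0117) without the preleukemic library, so its sign rested on which of these 2 single animals stood for non-leukemic thymus. By phase, Myc in the preleukemic library was at 21.1 CPM in G1, 74.3 in S and 40.2 in G2/M, while in WT it was at 32.2, 27.5 and 17.9 CPM. In T-ALL#1 it was lower in G1, at 50.8 CPM (95% Poisson interval 47.5 to 54.2), than in S (71.3, interval 68.2 to 74.5) and G2/M (74.1, interval 70.7 to 77.5), unlike the equal levels by Mki67 and Top2a. T-ALL#2 had 39.7, 45.5 and 47.2 CPM. With cycling called on all UMIs, Myc and Mycn in T-ALL#1 were also a lower share of RNA in non-cycling cells. They had 1066 of 19057514 UMIs there and 3678 of 51546191 in cycling cells.

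Cells at different stages are mixed in these sums, so the members were read by Cd4 and Cd8 UMIs among the 2000 thinned UMIs of a cell. Cells with neither among them are called double-negative, although many have such UMIs in their full counts: of 634 non-cycling WT cells called so, 250 had none at full depth. They were 24.1% of non-cycling WT cells and 71.5% of non-cycling preleukemic cells. Within them, Myc was at 48.8 CPM in non-cycling and 39.4 CPM in cycling WT cells (fold 0.807, 95% exact interval 0.621 to 1.04) and at 31.3 and 70.5 CPM in the preleukemic library (fold 2.25, interval 2.01 to 2.53). In cells with Cd8a or Cd8b1 and no Cd4, Myc went from 36.7 to 12.8 CPM in WT and from 30.7 to 46.4 CPM in the preleukemic library. The directions of Myc in WT and the preleukemic library were thus the same within both gates as in all cells, although in double-negative WT cells the interval held 1. In T-ALL#1 the equal levels of all cells did not hold in each gate. Cycling cells held less Myc among double-negative cells, at 68.5 against 79.5 CPM (fold 0.861, interval 0.796 to 0.932). Among double-positive cells they held more, at 62.9 against 43.4 CPM (fold 1.45, interval 1.12 to 1.87). The intervals of its other gates, and of every gate in T-ALL#2, held 1. Non-cycling double-negative cells of T-ALL#1 still held 79.8 CPM of Mki67 and 122 CPM of Top2a, against 17.8 and 22.6 CPM in WT. The part of dividing cells missed by the call in the lower Myc of cycling cells there was not tested. Among double-negative leukemic cells of the DN3 stage, the study reports lower Myc in its dormant than in its proliferative cluster. The order of the libraries differed between gates. Over both states, double-negative cells held 45.8 CPM of Myc in WT (40.9 to 51.2), 42.0 CPM in the preleukemic library (39.6 to 44.4) and 46.0 CPM in T-ALL#2 (43.4 to 48.7), whose intervals overlapped, and 73.1 CPM in T-ALL#1 (70.3 to 76.0). Non-cycling double-negative cells had 48.8 CPM in WT, above the preleukemic library and near the 45.0 CPM of T-ALL#2. Non-cycling double-positive cells had 8.26 CPM of Myc in WT and 6.45 CPM in preleukemic thymus (2 UMIs), against 43.4 CPM in T-ALL#1 and 34.0 CPM in T-ALL#2. Mxd4 was higher in non-cycling double-positive than in non-cycling double-negative cells in every library, at 500.04 against 230 CPM in WT, 438 against 253 in preleukemic thymus, 524 against 118 in T-ALL#1 and 211 against 72.1 in T-ALL#2. Over both states, Mxd4 was higher in T-ALL#1 than in WT among double-positive cells (455 against 371 CPM) and near it among cells with Cd8 alone (181 against 170 CPM), and it was lower among double-negative cells (76.3 against 171 CPM) and cells with Cd4 alone (139 against 209 CPM). Mxd3 was higher in cycling cells of each gate that held over 100 cells in each state, by 4.88-fold in double-negative T-ALL#2 cells up to 68.2-fold in double-positive WT cells.

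**Figure D4:**
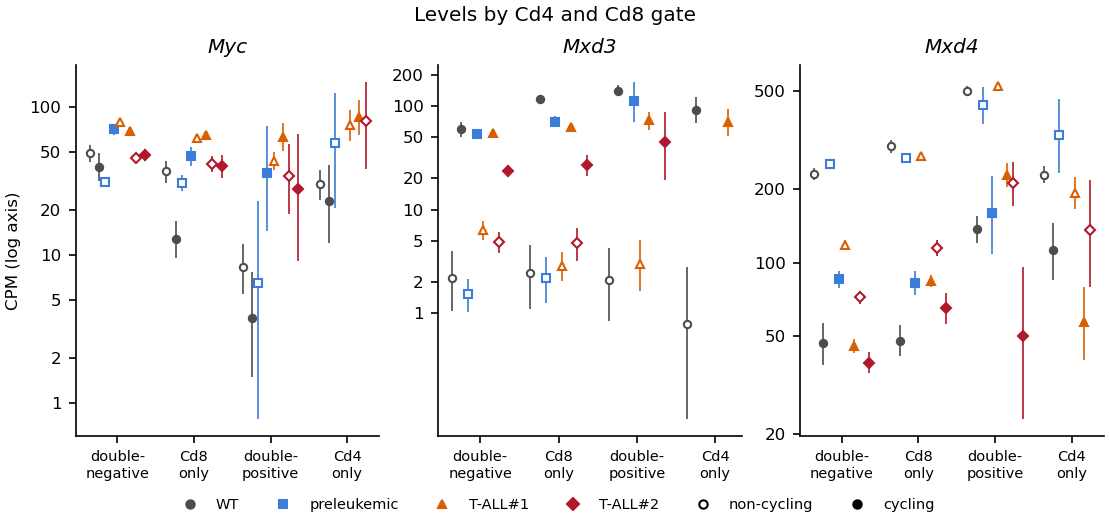
CPM (log axis) of Myc, Mxd3 and Mxd4 by Cd4 and Cd8 gate, library and state, with 95% Poisson intervals. Sums under 100000 UMIs and sums at 0 UMIs are not drawn. Open symbols (non-cycling) lie above filled ones for Mxd4 and below them for Mxd3, and Myc in non-cycling double-positive cells is higher in T-ALL#1 (43.4 CPM) and T-ALL#2 (34.0 CPM) than in WT (8.26 CPM).

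CPM is a share of a cell's RNA, and cycling cells held more RNA. Their median depth was 11596 UMIs in WT against 4488 in non-cycling cells, 14117.5 against 4784 in preleukemic thymus, 19976 against 5890 in T-ALL#1 and 24997 against 14834 in T-ALL#2. Counted per 100 cells instead, Mxd4 was the 1 member lower in cycling cells of all 4 libraries, with 102 against 169 UMIs in WT, 131 against 167 in preleukemic thymus, 136 against 212 in T-ALL#1 and 111 against 140 in T-ALL#2. No more than 1.4% of all genes were lower on this scale in all 4 libraries, and 89.5% were higher. Among members 7 were higher in all 4, Myc among them, with 26.0 against 17.7 UMIs in WT and 94.6 against 19.9 in the preleukemic library. Mxd1 was lower per cell in WT alone, at 19.6 against 22.0 UMIs (fold 0.888, 95% exact interval 0.721 to 1.09). Mga was higher per cell throughout, by 1.44-fold to 1.81-fold. The share of thinned cells with a UMI, which sets all cells to one depth, was higher in cycling cells of all 4 libraries for Mxd3 (21.4% of genes were) and lower in all 4 for Mxd1, Mxd4 and Mlx (30.3% of genes were). With another seed for thinning 6 members were lower in all 4 libraries, Mxd1 and Mxd4 among them and Mlx not.

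The balance of repressors to activators was taken as UMIs of Mxd1, Mxd3, Mxd4, Mxi1 and Mnt per UMI of Myc and Mycn. Over all cells it was 13.6 in WT (95% interval 12.6 to 14.8), 7.94 in preleukemic thymus (7.54 to 8.36), 3.602 in T-ALL#1 (3.49 to 3.72) and 2.95 in T-ALL#2 (2.79 to 3.13), with no overlap. With thinned UMIs, tried after the data were seen, it was 19.3 in WT and 17.6 in the preleukemic library, against 6.46 in T-ALL#1 and 3.49 in T-ALL#2, so the step between the first 2 depended on how deep cells were weighted. The libraries also differed in stage. Double-positive cells, with 6.65 CPM of Myc and 371 CPM of Mxd4 in WT, were 35.3% of WT and 1.49% of preleukemic cells. Double-negative cells held 45.8 CPM of Myc and 171 CPM of Mxd4 in WT, against 42.0 and 207 CPM in the preleukemic library. The ratio was not taken within gates, and the part of stage in it was not tested. In non-cycling cells it was 12.1, 11.5, 4.53 and 3.26 in that order (19.2, 25.2, 7.70 and 3.73 with thinned UMIs). Cycling cells had 12.3, 3.33, 2.67 and 2.47. The ratio was lower in cycling cells of 3 libraries and alike in both states of WT. With cycling called on all UMIs it was lower in cycling cells of all 4 libraries, WT included (9.74 against 13.8), with a mean log2 difference of -1.33 (p = 0.125 in the exact test named next). The mean log2 difference was -0.73 (SD 0.77, n = 4; two-sided exact paired permutation test over libraries p = 0.25, where 0.125 is the smallest p that 4 pairs allow). Without Mxd4 the mean turned to 0.46 (p = 0.375 in the same exact test), and without Mxd3 it was -1.27, lower in cycling cells of all 4 libraries (p = 0.125).

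**Figure D5:**
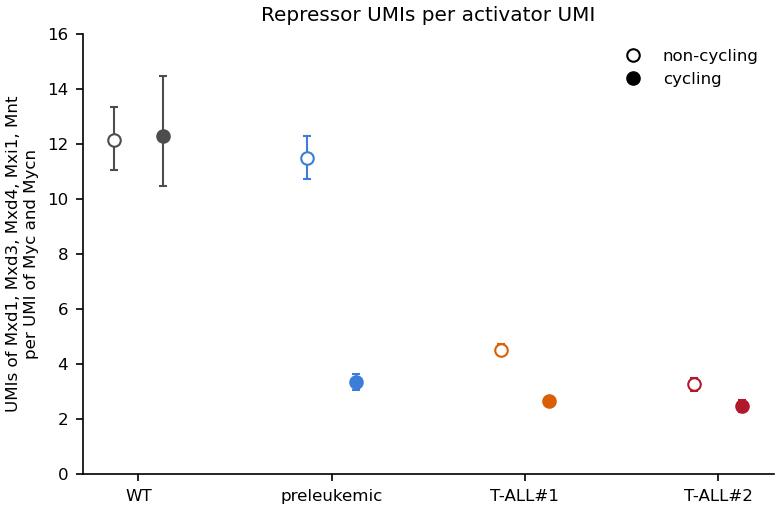
UMIs of Mxd1, Mxd3, Mxd4, Mxi1 and Mnt per UMI of Myc and Mycn in non-cycling (open) and cycling (filled) cells of each library, with 95% counting intervals. The preleukemic library drops from 11.5 to 3.33, WT stays near 12, and both leukemias lie under 5 in either state.

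Partner complexes and targets were followed by lists, in the same edgeR comparison of cycling and non-cycling cells. Of the 10 genes of the SIN3 corepressor, through which Mxd proteins and Mnt act, 7 were higher and 0 lower in cycling cells (19.2% and 21.6% of all genes), with a median log2 change of 0.43 beside -0.06 for all genes. They included Sap30 (1.15, adjusted p = 0.0146), Rbbp7 (1.02, adjusted p = 0.00410), the histone chaperone subunit Rbbp4 (0.83, adjusted p = 0.00590) and the deacetylase Hdac2 (0.47, adjusted p = 0.0272). Of 10 genes of the Mga complex 5 were higher and 0 lower, with a median of 0.37. Tfdp1, the partner of E2f6, went from 51.2 to 189 CPM in WT and from 79.5 to 119 CPM in T-ALL#2 (log2 change 1.26, adjusted p = 0.00946), and Cbx3, E2f6 and Wdr5 rose by 0.67, 0.65 and 0.58. Among 13 Myc cofactors and turnover factors 7 were higher and 0 lower, with a median of 0.37, led by the ubiquitin ligase subunit Skp2 (1.59, adjusted p = 0.0148) and followed by the ATPase Ruvbl2 (0.69) and the chromatin factor Hcfc1 (0.56).

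Of 24 genes known as Myc targets, 17 were higher and 1 lower in cycling cells (19.2% and 21.6% of all genes), with a median log2 change of 0.60. The growth regulator Pa2g4 rose by 0.95, the pyrimidine enzyme Cad by 0.95 and the polyamine enzyme Odc1 by 0.78, with adjusted p-values from 0.00612 to 0.0176. Ccnd2, cyclin D2, was the 1 that fell (log2 change -1.48, adjusted p = 0.0130), from 624 to 125 CPM in WT. Among the same 24 genes, 16 were at least 1.5-fold higher in both leukemias than in WT (8.18% of all genes) and 13 than in the preleukemic library (6.14%). Ribosome biogenesis genes were among them, Ncl with 766 CPM in WT, 840 in preleukemic thymus, 1323 in T-ALL#1 and 1688 in T-ALL#2, and Npm1 with 1290, 1691, 2584 and 3554 CPM. Ccnd2 was the 1 gene of the list at least 1.5-fold lower in both leukemias than in each of the other libraries, at 417, 53.5, 11.9 and 21.9 CPM.

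Of the Mondo factors and targets listed, the 3 genes tested fell with cycling, as 21.6% of all genes did, while Mlx itself was not called. Txnip, an inhibitor of glucose uptake and the classical target of Mlx with its Mondo partners, went from 255 to 72.9 CPM in WT, from 356 to 109 in preleukemic thymus, from 86.2 to 28.6 in T-ALL#1 and from 36.6 to 20.9 in T-ALL#2 (log2 change -1.39, SE 0.15, adjusted p = 0.00376). Its relative Arrdc4 fell by 2.06 on the log2 scale (adjusted p = 0.00572). Mlxip, the Mondo factor itself, fell by 0.51 (adjusted p = 0.0252), while Mycl and Mlxipl had too few UMIs to test, both under 0.3 CPM in every library. Txnip was lower in both leukemias than in the other libraries, at 57.2 and 30.7 CPM against 199 in WT and 289 in the preleukemic library. As a check of the states, 42 of 43 S phase genes and 51 of 52 tested G2/M genes were higher in cycling cells. DN3 is the double-negative stage at which the T-cell receptor is first tested. Of 5 DN3 markers, 1 was lower in cycling cells (Dtx1, log2 change -0.64, edgeR adjusted p = 0.0104), beside 21.6% of all genes. None was higher, beside 19.2% of all genes. In both leukemias 4 were at least 1.5-fold higher than in WT (8.18% of all genes) and 5 than in the preleukemic library (6.14%).

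The genes most like Myc, Mxd3 and Mxd4 were sought among 5834 genes over 30 sums of library, Cd4 and Cd8 gate and state, which share cells' depth and library. Mxd3 was most like the mitotic genes Nusap1 (Pearson r = 0.980), Hmmr (0.977), Depdc1a (0.974), Cdca2 (0.973) and Cep55 (0.972). Mxd4 was most like Mau2 (0.951), which loads cohesin, the costimulatory receptor Cd27 (0.941), Fbxl20 (0.933), Ypel3 (0.933) and Pecam1 (0.930). For Myc the likeness was weaker, with Mettl1 (0.814), a tRNA methyltransferase, Psmb10 (0.812), Wdr43 (0.810), Rps6 (0.797) and Rpl5 (0.790), the last 2 of which are ribosomal proteins. These coefficients are descriptions over sums that are not independent.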

How the data were processed

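The deposited matrices hold counts, UMIs per gene and barcode with no normalization, which the authors made with Cell Ranger (version 3.0.2 for WT, the preleukemic library and T-ALL#1, version 4 for T-ALL#2, per the file headers) on mm10. Coordinates are from GENCODE M21, which held 99.6% of the gene identifiers. The chemistry of each library is not given in the sources used here, and chemistry, software, sex and animal cannot be told apart for T-ALL#2. Its cells had at least 3416 UMIs, 1/10 of the 99th percentile of the top 10000 barcodes. Cells were kept with over 500 genes and under 10% mitochondrial UMIs. No doublet caller was run, and the study's upper limit on genes per cell is an alternative. The study's number of T-ALL#2 cells was not repeated.

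CPM used all UMIs of kept cells. Sums were tested with edgeR 4.0.16 in R 4.3.3 (TMM factors, filterByExpr, robust quasi-likelihood), and DESeq2 1.42.0 as an alternative. Both sums of a library come from 1 animal and deviated together (r of 0.775 to 0.910 across 9196 genes), so the library was a block. Mki67 and Top2a were left out of counts of genes, and phases were scored in scanpy 1.11.5. The fit was tested on simulated data. From each list up to 4 genes with the largest changes past the threshold are named (1 such gene is not reported here), and the 5 genes most like Myc, Mxd3 and Mxd4 among those with at least 20 CPM. Ncl, Npm1 and the libraries' Ccnd2 and Txnip levels were chosen after their values were seen. The members and lists were chosen with earlier results of these data known. Alternatives varied scaling, filters, thinning, cell selection, cycling calls and libraries.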

Additional observations from a re-analysis of the deposited data

Results flagged for a closer look

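The cycling effect on Myc had opposite directions in WT and preleukemic thymus. The log2 ratio of CPM in cycling over non-cycling cells was -0.84 in WT (95% counting interval -1.11 to -0.57) and 1.01 in the preleukemic library (0.86 to 1.15). With 1 animal in each group the difference itself was not tested. Counted per 100 cells, Myc was higher in cycling cells of both libraries, so the opposite directions belong to the share of RNA. The sizes still differed on this scale. The fold was 1.47 in WT (95% exact interval 1.21 to 1.76) and 4.75 in the preleukemic library (4.30 to 5.24). Myeloid markers summed to 574 CPM in non-cycling and 146 CPM in cycling WT cells, against 149 and 98.997 CPM in the preleukemic library, and red cell markers to 139 CPM in non-cycling WT cells against 0.474 CPM in cycling ones. Their part in the WT ratio was not tested.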

How the results depend on the processing

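Mxd3 (log2 change 3.403 to 5.57) and Mxd4 (-1.68 to -1.19) kept their direction and call in all 14 alternatives of the cycling comparison. Genes called numbered 403 with no replicate block and 1647 in cells without Cd4, Cd8a and Cd8b1 at full depth, against 4778, and 1158 to 5088 when 1 library was left out. The library block changed the calls of Mxd1 and Mga and of no other member. For the interaction with leukemia, edgeR called 0 genes, DESeq2 289, the fit of every gene with at least 1 UMI 644, cycling called on all UMIs 3, cells with Cd8a or Cd8b1 8, and fits without 1 library 0 to 1262. The mean log2 difference of the repressor ratio ran from -0.98 to -0.38 without 1 library and was 0.46 without Mxd4. Members past 1.5-fold against the preleukemic library numbered 1, and 3 with cells weighted equally, 2 with thinned UMIs or in non-cycling cells, and 0 in cycling cells. In non-cycling cells Mxd3 was past 1.5-fold higher, and in cycling cells past 1.5-fold lower, in both leukemias than in WT. Of the members past it against WT in all cells, Mxd1 stayed so in non-cycling cells alone, Myc in cycling cells alone and Mxd4 in neither. Members with a lower share in cycling cells of all 4 libraries numbered 3, and 6 with another seed, 5 at 1000 UMIs and 1 without thinning.

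Changes of sign were limited to members not called, with 1 exception. In the cycling comparison Mlx was at -0.0027 with no replicate block, -0.050 on all UMIs, -0.079 by phase, -0.20 with thinned UMIs and -0.081 with another seed. Without 1 library Mlx ran from -0.030 to 0.060, Mxi1 from -0.13 to 0.030 and Myc from -0.15 to 0.45. In the interaction Myc was at 0.20 in cells with Cd8a or Cd8b1, and on all UMIs Mxd4 was at -0.080 and Mnt at 0.13. Without 1 library Max ran from -0.048 to 0.42, Mxd4 from -0.038 to 0.71, Mxi1 from -0.12 to 0.38, Mnt from -0.30 to 0.085 and Myc from -1.08 without WT to 0.81 without the preleukemic library, both called. The cause was not tested. Depth limits Mycn most, at 0 to 32 UMIs per library.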
